A study of Mus musculus with 16 samples.

Results

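The 40 genes described here encode proteins of the lysosome, including 9 enzymes that degrade glycosaminoglycans, together with other glycosidases and lipases, 11 cathepsins and peptidases, 4 membrane proteins and 2 regulators. They were taken as a list of mouse symbols and not by a cutoff on a measured value, but earlier results of these data were known. All 40 were found among the 55414 gene identifiers of the count table. All 40 were also among the 15285 genes with enough reads to be tested. RNA was sequenced from cultured mouse cardiac fibroblasts, the matrix-making cells of the heart, at passage 2. There were 4 groups of 4 libraries, namely cells given a Cre adenovirus and then TGF-beta, cells given a green fluorescent protein (GFP) adenovirus and then TGF-beta, Cre-virus cells without TGF-beta and GFP-virus cells without TGF-beta. They are called here Cre cells and GFP cells, with or without TGF-beta. All cells were starved of serum for 24 h, received virus for 5 h and were harvested after 48 h of stimulation. Cre recombinase is meant to remove exon 2 of Has2, which encodes a hyaluronan synthase. The protocol names Has2-floxed mice as the source, whereas the genotype label of every sample reads wild type, on a C57BL/6J background. TGF-beta is listed in the protocol together with basic fibroblast growth factor, at 20 ng/mL, and it does not say if the cells without TGF-beta were given the other growth factor, so the effects of these factors cannot be told apart. Replicate numbers 1 to 4 are taken here to mark 4 cell preparations that each gave 1 library to every group. The labels do not state this pairing, which rests on the correlations between libraries given with the processing. Preparations 1 and 4 are labelled male and preparations 2 and 3 female. The labels do not say how many hearts went into a preparation, and the p-values below speak only of the spread among these 4 preparations.

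Glycosaminoglycans such as heparan, dermatan, chondroitin and keratan sulfate are broken down in the lysosome, sugar by sugar from the free end, by exoglycosidases and sulfatases that act in a set order. Loss of most of these enzymes stops the breakdown of the chain and causes a mucopolysaccharidosis, in which heart valves and heart muscle are among the tissues affected. Hyaluronan, the product of Has2, is cut by hyaluronidases and then degraded by beta-glucuronidase and beta-hexosaminidase. Many lysosomal genes share a promoter motif that is bound by TFEB and its relatives, which couple lysosome number to nutrient supply. TGF-beta turns cardiac fibroblasts into contractile, matrix-secreting myofibroblasts.

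Library totals ranged from 17.9 to 48.7 M counts, and all levels are CPM, that is counts scaled to a common library size with TMM factors. Has2 had 12.5, 11.04, 25.03 and 17.4 CPM in Cre cells with TGF-beta, against 15.3, 9.47, 21.9 and 20.7 CPM in GFP cells with TGF-beta. Without TGF-beta it had 14.9, 13.5, 16.6 and 13.9 CPM in Cre cells, against 17.97, 15.3, 23.2 and 18.5 CPM in GFP cells. Has2 did not pass the test between Cre and GFP cells in either medium, with log2 fold changes of -0.03 ± 0.26 (SE) with TGF-beta and -0.35 ± 0.26 without. With the preparation fitted as a block these were -0.04 ± 0.15 and -0.32 ± 0.15, and did not pass either. Without TGF-beta Has2 was lower in Cre cells in 4 of 4 preparations (13.3% of all genes), and with it in 2 of 4. Counts over the whole gene cannot isolate exon 2. The myofibroblast marker Acta2 had 1546 to 2695 CPM in Cre cells and 1403 to 2693 CPM in GFP cells with TGF-beta, against 221 to 364 CPM in Cre cells and 235 to 374 CPM in GFP cells without it. The 9 fibroblast markers summed to 14684 to 47011 CPM, and 6 of them fell with TGF-beta in each cell group. Of 17 macrophage and leukocyte markers, 16 were tested, and their summed level was 476 to 1239 CPM in Cre cells and 503 to 1135 CPM in GFP cells with TGF-beta, against 754 to 2007 CPM in Cre cells and 853 to 1880 CPM in GFP cells without it. Lyz2, the most abundant of these markers, ranged from 282 to 877 CPM over the 16 libraries, and Cd74 from 0 to 0.76 CPM. Summed cardiomyocyte markers reached at most 23.7 CPM, with Nppa and Pln at 0 in every library, and summed endothelial markers at most 46.7 CPM. In bulk RNA, fewer cells of a type and less RNA per cell cannot be told apart.

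Per kilobase of exon, and averaged over the 16 libraries, the most abundant of the 40 genes was Ctsd, the aspartic protease cathepsin D, at 609.6 CPM per kb. Psap, the precursor of the saposins that help sphingolipid enzymes reach their substrates, followed at 348 CPM per kb, and Lamp1, a main glycoprotein of the lysosomal membrane, at 309.7 CPM per kb. The enzymes of glycosaminoglycan breakdown were far lower on this scale. Hexa, the alpha subunit of beta-hexosaminidase, stood at 81.1 CPM per kb, Glb1 at 35.2, Gusb, which encodes beta-glucuronidase, at 25.1, Naglu at 15.1, Sgsh at 12.5, Galns at 12.3, Arsb at 10.4, Ids at 9.996 and Idua at 3.07 CPM per kb. The lowest of the 40 on this scale was Galc, which encodes galactosylceramidase, at 1.89 CPM per kb. The scale divides by all annotated exon bases of a gene, not by a transcript length, and Galc has 14879. In CPM the group means of Galc ran from 16.1 to 41.6, above the 9.79 to 15.8 of Idua. Together the 40 genes took 0.842 ± 0.0438% of all counts in Cre cells with TGF-beta and 0.85 ± 0.0455% in GFP cells with TGF-beta, against 1.05 ± 0.0758% in Cre cells and 1.02 ± 0.0483% in GFP cells without it (SD, n = 4 each). The 9 enzymes of glycosaminoglycan breakdown summed to 515 ± 48.8 CPM and 555.1 ± 80.9 CPM in Cre and GFP cells with TGF-beta, against 721 ± 60.5 CPM and 753 ± 66.7 CPM in Cre and GFP cells without it. The heat map of all 40 genes shows both the genes that move with TGF-beta and those that follow the preparation.

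**Figure D1:**
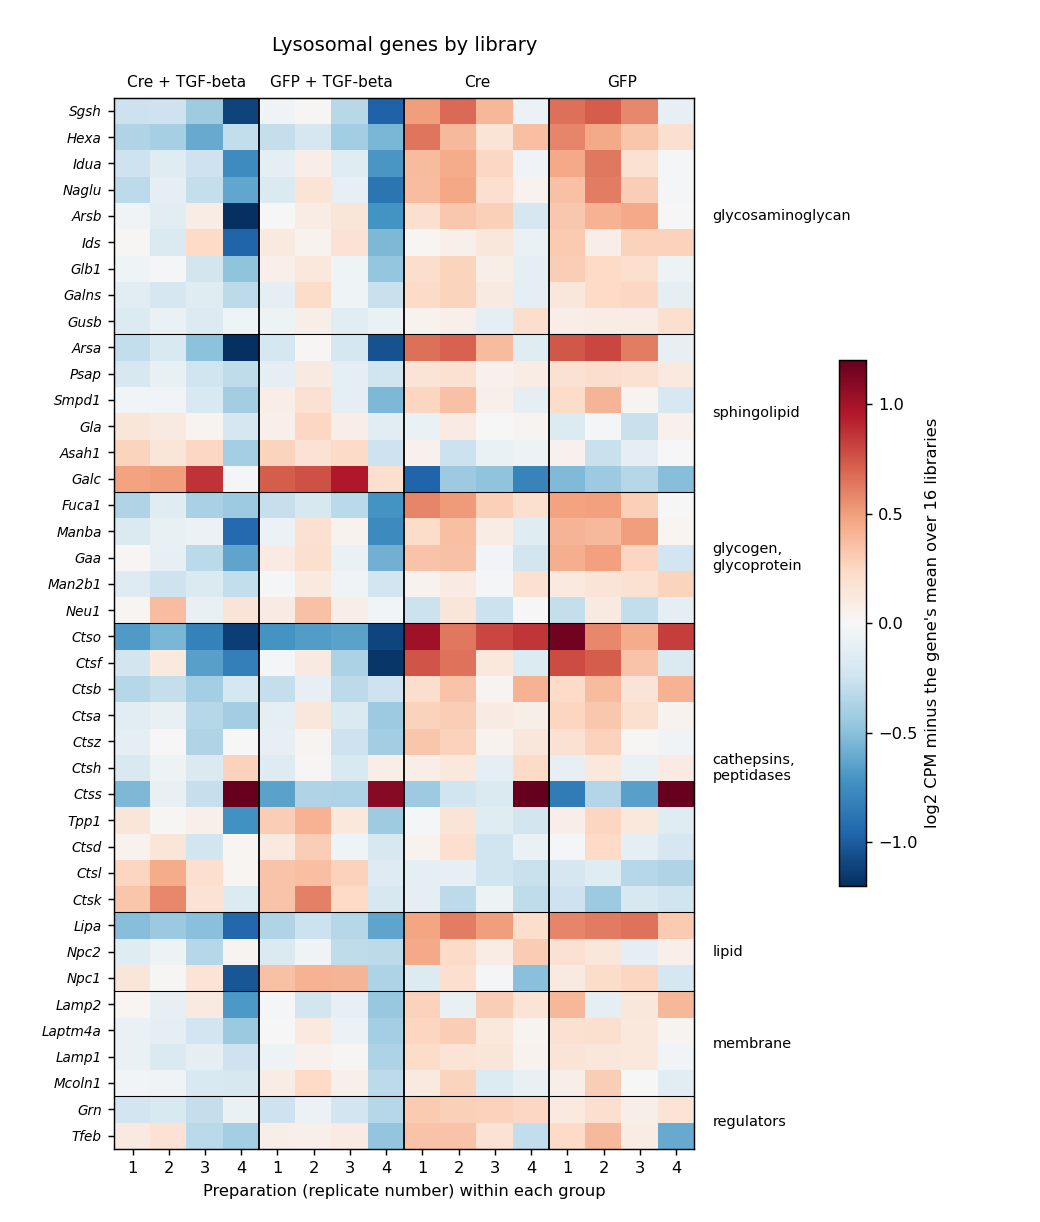
Log2 CPM of each of the 40 lysosomal genes minus that gene's mean over the 16 libraries, with genes in rows by role and libraries in columns by group (Cre with TGF-beta, GFP with TGF-beta, Cre, GFP; replicates 1 to 4 in each). Most rows are lower in the 8 libraries with TGF-beta, Galc, Ctsk and Ctsl are higher there, and Ctss is high in replicate 4 of all 4 groups.

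Promoter windows were read for the genes whose RefSeq promoter (build GRCm38.p6, 250 bases before to 50 bases after the start) was at hand, because TFEB is known to bind the palindrome CACGTG in the wider form TCACGTGA. A promoter was matched for 35 of the 40 genes, and Ctsb, Galns, Asah1, Npc1 and Ctsh were not matched. CACGTG stood in the promoters of 12 of the 35 (34.3%), against 8.09% of 27025 genes in the whole promoter table. TCACGTGA stood in 4 of the 35 (11.4%), against 1.12% of all genes, and every TCACGTGA also counts as a CACGTG. Being palindromes, both read alike on either strand. The windows below, with the motif in capitals and written 5′ to 3′ on the gene's strand, show 1 site or cluster of sites for each of the 12 genes, so that they can be read beside the changes given later.
Ctsa (chr2:164833749-164833772, plus strand): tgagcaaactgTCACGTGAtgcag
Ctsd (chr7:142387908-142387937, minus strand): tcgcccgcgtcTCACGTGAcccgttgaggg
Mcoln1 (chr8:3500462-3500491, plus strand): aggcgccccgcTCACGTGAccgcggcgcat
Gla (chrX:134601215-134601244, minus strand): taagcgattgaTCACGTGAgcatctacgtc
Lamp1 (chr8:13159088-13159160, plus strand): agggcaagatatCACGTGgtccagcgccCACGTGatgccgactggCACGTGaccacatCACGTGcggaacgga
Glb1 (chr9:114401018-114401047, plus strand): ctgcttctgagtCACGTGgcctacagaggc
Naglu (chr11:101070009-101070038, plus strand): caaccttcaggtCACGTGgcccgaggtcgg
Sgsh (chr11:119355522-119355551, minus strand): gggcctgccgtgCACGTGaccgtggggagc
Arsa (chr15:89477425-89477452, minus strand): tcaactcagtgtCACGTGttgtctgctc
Gaa (chr11:119267811-119267840, plus strand): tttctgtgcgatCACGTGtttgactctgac
Ctsl (chr13:64370739-64370768, minus strand): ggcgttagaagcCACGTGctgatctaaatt
Ctsf (chr19:4855074-4855103, plus strand): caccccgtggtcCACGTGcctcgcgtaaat
Lamp1 held 4 copies of CACGTG within its 73 bases, and each other window shown holds 1 copy. Further sites of Ctsd, Mcoln1 and Gla are not printed. A match is a description of the letters and not evidence of binding.

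With TGF-beta, the lysosomal genes that passed the test were mostly lower. In Cre cells 17 of the 40 fell (42.5%) and 3 rose (7.5%), against 16.3% of all tested genes lower and 14.0% higher. In GFP cells 11 fell (27.5%) and 3 rose (7.5%), against 15.3% of all tested genes lower and 13.8% higher. All 11 that fell in GFP cells also fell in Cre cells, and the 3 that rose, Galc, Ctsk and Ctsl, were the same in both, where the comparisons use separate libraries of the same 4 preparations. The median log2 fold change of the 40 was -0.31 in Cre cells and -0.25 in GFP cells, where the median of all tested genes was 0.02 and -0.02. The count depended on the model: with the preparation as a block, 26 fell and 4 rose in Cre cells (27.3% and 25.2% of all genes), and 25 fell and 4 rose in GFP cells (26.5% and 22.6% of all genes). Groups did not overlap for 18 genes that were lower and 2 that were higher in Cre cells (15.8% and 12.5% of all genes), and for 9 and 2 in GFP cells (14.7% and 15.1%). Differences within a preparation were below 0 in 4 of 4 preparations for 28 genes in Cre cells (29.6% of all genes) and for 28 genes in GFP cells (31.2%). In the block fit without preparation 4, 26 fell and 5 rose in Cre cells, and 22 fell and 6 rose in GFP cells, where over all genes 4335 fell and 4251 rose in Cre cells and 4204 and 3847 in GFP cells. By preparation, the summed level of the 40 genes with TGF-beta was 0.831, 0.86, 0.869 and 0.83 of that without it in Cre cells, and 0.893, 0.939, 0.911 and 0.797 in GFP cells. The macrophage and leukocyte markers were lower with TGF-beta too, with a median log2 fold change of -0.90 in Cre cells, where 4 of 16 fell (15 with the block), and -0.98 in GFP cells, where 3 of 16 fell (16 with the block), and their part in these counts was not tested.

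Without the block, the calls of Hexa, Galc, Fuca1, Ctsb, Ctso, Lipa and Grn held in both cell groups whichever 1 of the 16 libraries was left out. So did the calls of Sgsh, Psap, Man2b1 and Ctsa in Cre cells and that of Ctsl in GFP cells. The other calls were lost in some of these fits. In Cre cells, Arsa, Laptm4a, Naglu, Idua and Lamp1 each lost their call without replicate 1 and also without replicate 2 of the cells without TGF-beta, Npc2 without that replicate 1, and Ctsl without replicate 2 of the cells with TGF-beta. Naglu, Idua and Lamp1 also lost it without libraries with TGF-beta, and Galns and Ctsk without libraries of all 4 groups. In GFP cells, Arsa, Sgsh and Psap each lost their call without replicate 1 or 2 of the cells without TGF-beta and without replicate 4 of those with it, and Sgsh, Psap, Idua and Ctsa also without further libraries. Of the calls made only with the block, those of Gusb in both cell groups and of Lamp1 in GFP cells were lost when any 1 of the 4 preparations was left out, and those of Man2b1 in GFP cells and Tfeb in Cre cells in 3 of the 4 cases. The calls of Lamp2 and Smpd1 in GFP cells and of Neu1 in Cre cells were each lost in 2 of them. Those of Neu1, Npc2 and Laptm4a in GFP cells were each lost in 1. In the same fits the log2 fold change of Man2b1 in GFP cells was -0.14 without preparation 4 (edgeR adjusted p = 0.0833) and that of Ctsk in Cre cells 0.28 without preparation 2 (edgeR adjusted p = 0.0544).

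The glycosaminoglycan enzymes all had lower fitted levels with TGF-beta, and the size differed between them. Of the 9, 5 fell in Cre cells and 3 in GFP cells, where 16.3% and 15.3% of all genes fell. With the preparation block 8 and 7 fell, where 27.3% and 26.5% of all genes did. None of the 9 rose, and their median log2 fold change was -0.41 in Cre cells and -0.40 in GFP cells. Hexa had 121, 118, 102 and 126 CPM in Cre cells with TGF-beta, against 242, 203, 174 and 199.5 CPM in Cre cells without it. It had 128, 135, 116 and 106 CPM in GFP cells with TGF-beta, against 233, 213, 195 and 177 CPM in GFP cells without it. Every library with TGF-beta lay below every library without it, and the log2 fold change was -0.81 ± 0.12 in Cre cells (edgeR quasi-likelihood adjusted p = 0.000135) and -0.76 ± 0.12 in GFP cells (edgeR adjusted p = 0.000243). Sgsh, the heparan N-sulfatase whose window is printed above, had 42.8, 43.2, 38.0 and 23.5 CPM in Cre cells with TGF-beta, against 72.7, 82.7, 68.0 and 48.98 CPM without it. In GFP cells Sgsh had 49.96, 51.8, 40.6 and 25.9 CPM with TGF-beta, against 81.7, 85.1, 76.6 and 48.05 CPM without it. Replicate 4 was the lowest of each group, so that GFP groups overlapped through it, while the difference within a preparation was between -1.04 and -0.70 in all 8 pairs. Sgsh fell, at -0.88 ± 0.25 in Cre cells and -0.79 ± 0.25 in GFP cells on the log2 scale (edgeR adjusted p = 0.0143 and 0.0259).

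Other enzymes of heparan sulfate breakdown had smaller fitted changes. Idua, which removes terminal iduronic acid, had 10.4, 11.2, 10.4 and 7.17 CPM in Cre cells with TGF-beta, against 16.3, 17.2, 14.9 and 12.1 CPM without it, and its groups did not overlap there. In GFP cells Idua had 11.4, 13.2, 11.2 and 7.46 CPM with TGF-beta, against 17.3, 19.5, 14.2 and 12.2 CPM without it, and the lowest library without TGF-beta lay inside the range of those with it. Idua fell, at -0.62 ± 0.20 in Cre cells and -0.55 ± 0.20 in GFP cells (log2; edgeR adjusted p = 0.0254 and 0.0478), and the GFP call was lost in 12 of 16 fits that each left out 1 library. Naglu, the alpha-N-acetylglucosaminidase, had 31.1, 35.6, 31.8 and 25.1 CPM in Cre cells with TGF-beta, against 50.2, 53.8, 44.8 and 40.1 CPM without it. In GFP cells Naglu had 34.5, 43.6, 36.3 and 20.9 CPM with TGF-beta, against 49.7, 59.7, 47.8 and 38.3 CPM without it. Naglu fell in Cre cells (-0.61 ± 0.19, edgeR adjusted p = 0.026), whereas in GFP cells -0.53 ± 0.19 did not pass (edgeR adjusted p = 0.0505) without the preparation block and passed with it (edgeR adjusted p = 0.000144). Ids, which takes sulfate from iduronate and starts the breakdown of heparan and dermatan sulfate, had 50.5, 44.3, 58.9 and 25.3 CPM in Cre cells with TGF-beta, against 50.9, 51.95, 54.8 and 47.1 CPM without it. Its low value with TGF-beta sat in preparation 4, at -0.88 within that preparation in Cre cells and -0.82 in GFP cells against -0.23 to 0.10 in the other 6 pairs, and Ids passed neither fit in either cell group.

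The sulfatases and galactosidase of chondroitin, dermatan and keratan sulfate had smaller fitted decreases than Hexa and Sgsh. Arsb, which takes sulfate from N-acetylgalactosamine in dermatan and chondroitin sulfate, had log2 fold changes of -0.41 ± 0.24 in Cre cells and -0.40 ± 0.24 in GFP cells and passed only with the block (edgeR adjusted p = 0.00367 and 0.00699). It had 58.4, 55.3, 64.0 and 25.5 CPM in Cre cells with TGF-beta, against 69.2, 75.5, 73.4 and 52.5 CPM without it. In GFP cells Arsb had 60.2, 64.1, 66.6 and 36.5 CPM with TGF-beta, against 75.5, 80.7, 82.7 and 60.5 CPM without it. The gap was widest in replicate 4 in both cell groups. Galns, a sulfatase of keratan and chondroitin sulfate, had 29.4, 27.8, 28.98 and 25.9 CPM in Cre cells with TGF-beta, against 37.9, 38.7, 34.7 and 29.9 CPM without it, and these did not overlap. It fell, at -0.33 ± 0.12 in Cre cells (log2; edgeR adjusted p = 0.0475), a call lost in 12 of 16 fits that each left out 1 library, and its -0.18 ± 0.12 in GFP cells passed neither fit. Glb1, the beta-galactosidase of keratan sulfate and gangliosides, had log2 fold changes of -0.30 ± 0.14 in Cre cells and -0.24 ± 0.14 in GFP cells and passed only with the block (edgeR adjusted p = 0.000478 and 0.00277). Gusb differed least among those that passed with the block, at -0.17 in Cre cells and -0.16 in GFP cells (edgeR adjusted p = 0.0341 and 0.0439), and both calls were lost when any 1 preparation was left out. Hexa and Sgsh appear with 6 genes of other roles in the plot of CPM by library.

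**Figure D2:**
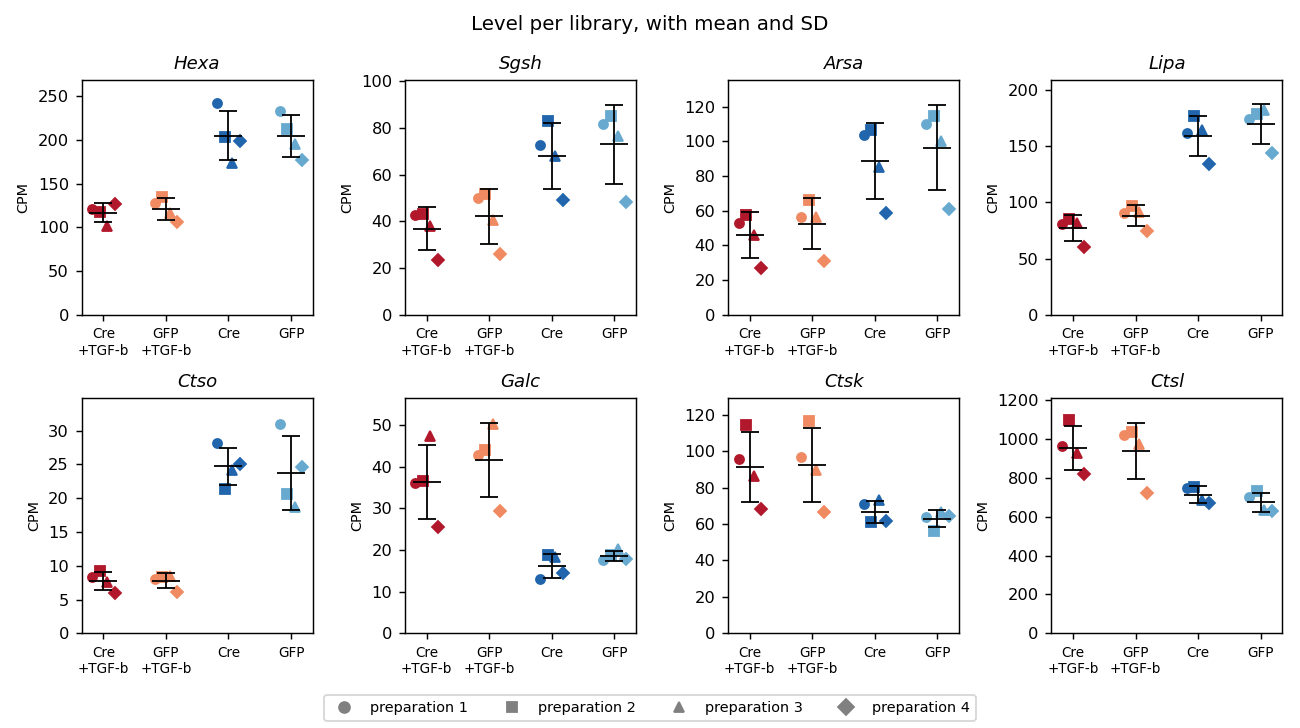
CPM of 8 lysosomal genes (Hexa, Sgsh, Arsa, Lipa, Ctso, Galc, Ctsk, Ctsl) in each library, in panels with a linear axis from 0; groups from left are Cre with TGF-beta, GFP with TGF-beta, Cre and GFP, points are replicates, and the line and bar are the mean and SD (n = 4). Hexa lies at 102 to 135 CPM in the 8 libraries with TGF-beta and at 174 to 242 CPM in the 8 without it, while Galc lies at 25.4 to 50.3 CPM with TGF-beta and at 12.96 to 20.2 CPM without it.

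Among the sphingolipid enzymes, a rise of Galc stood beside a fall of Arsa, which act on neighbouring steps: arylsulfatase A turns sulfatide into galactosylceramide, and galactosylceramidase splits that product. Galc had 36.03, 36.5, 47.2 and 25.4 CPM in Cre cells with TGF-beta, against 12.96, 18.8, 18.2 and 14.4 CPM without it. In GFP cells it had 42.7, 43.9, 50.3 and 29.4 CPM with TGF-beta, against 17.6, 18.8, 20.1 and 17.8 CPM without it. No library with TGF-beta overlapped one without it, and the level was 2.26 times as high in Cre cells and 2.24 times as high in GFP cells (edgeR adjusted p = 0.000278 and 0.000317). Arsa had 53.2, 57.4, 46.2 and 27.2 CPM in Cre cells with TGF-beta, against 104, 107, 85.1 and 58.98 CPM without it, and did not overlap. In GFP cells Arsa had 56.5, 65.9, 56.4 and 31.3 CPM with TGF-beta, against 109.9, 114, 100.4 and 60.8 CPM without it, with replicate 4 without TGF-beta inside the range of the treated libraries. Arsa fell, at -0.95 ± 0.28 in Cre cells and -0.88 ± 0.28 in GFP cells (log2; edgeR adjusted p = 0.0173 and 0.0263). Psap had 828, 893, 804 and 765 CPM in Cre cells with TGF-beta, against 1058, 1078, 979 and 1005 CPM without it, and fell there, at -0.32 ± 0.09 (log2; edgeR adjusted p = 0.012). In GFP cells Psap had 874, 1023, 874 and 802 CPM with TGF-beta, against 1074, 1096, 1076 and 1028 CPM without it, and fell, at -0.26 ± 0.09 (log2; edgeR adjusted p = 0.0391), a call lost in 8 of 16 fits that each left out 1 library. Smpd1, acid sphingomyelinase, was lower only with the block, whereas Gla, alpha-galactosidase A, and Asah1, acid ceramidase, passed neither fit in either cell group.

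Of the 5 glycosidases of glycogen and glycoproteins, Fuca1 moved most. Fuca1, the fucosidase, had 97.2, 113, 95.4 and 92.4 CPM in Cre cells with TGF-beta, against 188, 178, 153 and 143 CPM without it. In GFP cells Fuca1 had 103, 109, 99.6 and 75.96 CPM with TGF-beta, against 174, 177, 152 and 125 CPM without it. Its groups did not overlap, and it fell, at -0.73 ± 0.14 in Cre cells and -0.70 ± 0.14 in GFP cells (log2; edgeR adjusted p = 0.00091 and 0.0014). Man2b1, the lysosomal alpha-mannosidase, had 80.04, 74.9, 78.96 and 72.8 CPM in Cre cells with TGF-beta, against 91.8, 95.8, 88.5 and 101 CPM without it, and fell there (-0.30 ± 0.08, edgeR adjusted p = 0.0126). In GFP cells its -0.22 ± 0.08 passed only with the block (edgeR adjusted p = 0.0248). Gaa, the acid alpha-glucosidase of glycogen, and Manba, beta-mannosidase, were lower only with the block, in both cell groups. Neu1, the lysosomal sialidase, went the other way at 0.21 in Cre cells and 0.28 in GFP cells, and also passed only with the block (edgeR adjusted p = 0.0248 and 0.00552). The call was lost without preparation 1 in both cell groups, and in Cre cells also without preparation 2.

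Of the 3 genes of lipid hydrolysis and cholesterol export, the lipase fell most. Lipa, lysosomal acid lipase, which releases cholesterol and fatty acids from lipoprotein lipids, had 81.02, 85.1, 81.8 and 60.04 CPM in Cre cells with TGF-beta, against 161, 177, 164 and 134 CPM without it. In GFP cells Lipa had 90.2, 96.5, 91.5 and 74.5 CPM with TGF-beta, against 174, 178, 182 and 144 CPM without it. The lowest library without TGF-beta lay above the highest with it, and the level was 0.483 of that without TGF-beta in Cre cells and 0.519 in GFP cells (edgeR adjusted p = 2.34e-05 and 6.22e-05). Npc2, the soluble cholesterol-binding protein, had 613, 649, 534 and 691 CPM in Cre cells with TGF-beta, against 926, 794, 719.9 and 835 CPM without it. It fell there (-0.40 ± 0.11, edgeR adjusted p = 0.0131), and its -0.27 ± 0.11 in GFP cells passed only with the block. Npc1, which takes cholesterol from Npc2 at the membrane, had log2 fold changes of 0.00 ± 0.24 in Cre cells and 0.13 ± 0.24 in GFP cells and passed neither fit.

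The 11 cathepsins and peptidases moved in both directions, with 3 that fell (27.3%) and 2 that rose (18.2%) in each cell group. Over all genes 16.3% fell and 14.0% rose in Cre cells, and 15.3% and 13.8% in GFP cells, so the share that rose was near that of all genes. Ctso, cathepsin O, a cysteine protease, had the largest change of the 40 genes. It had 8.34, 9.15, 7.55 and 5.97 CPM in Cre cells with TGF-beta, against 28.2, 21.4, 24.1 and 25.1 CPM without it. In GFP cells it had 8.09, 8.40, 8.54 and 6.11 CPM with TGF-beta, against 30.98, 20.6, 18.7 and 24.7 CPM without it. The groups lay far apart, and the level with TGF-beta was 0.314 of that without it in Cre cells and 0.327 in GFP cells (edgeR adjusted p = 5.84e-06 and 9.01e-06). Ctsb, cathepsin B, had 604, 631, 578 and 663 CPM in Cre cells with TGF-beta, against 890.5, 972, 785 and 1024 CPM without it. In GFP cells Ctsb had 632, 718, 618 and 648 CPM with TGF-beta, against 902, 998, 857 and 1024 CPM without it. Its groups did not overlap, with log2 fold changes of -0.57 ± 0.10 and -0.53 ± 0.10 (edgeR adjusted p = 0.000582 and 0.00103). Ctsa, the carboxypeptidase that protects beta-galactosidase and sialidase, fell, at -0.43 ± 0.12 in Cre cells and -0.34 ± 0.12 in GFP cells (edgeR adjusted p = 0.0131 and 0.043), the GFP call being lost in 10 of 16 fits that each left out 1 library.

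The collagen-degrading protease Ctsk, cathepsin K, had 95.9, 114, 86.3 and 67.9 CPM in Cre cells with TGF-beta, against 70.7, 61.2, 73.1 and 61.5 CPM without it. In GFP cells Ctsk had 96.6, 116, 89.9 and 66.8 CPM with TGF-beta, against 64.1, 56.05, 66.7 and 64.6 CPM without it. Replicate 4 barely differed, at 0.14 in Cre cells and 0.05 in GFP cells on the log2 scale, whereas replicate 2 differed by 0.90 and 1.05. Ctsk rose by 0.45 ± 0.16 in Cre cells and 0.56 ± 0.16 in GFP cells (edgeR adjusted p = 0.0476 and 0.0181), and the calls were lost in 11 and 2 of 16 fits that each left out 1 library. Ctsl, cathepsin L, another cysteine protease, had 967, 1097, 927 and 822 CPM in Cre cells with TGF-beta, against 748, 754, 685 and 670.3 CPM without it. In GFP cells Ctsl had 1019, 1037, 976 and 723 CPM with TGF-beta, against 699.8, 731, 635 and 629.7 CPM without it, and only replicate 4 with TGF-beta fell inside the range of the untreated libraries. It rose by 0.42 ± 0.12 in Cre cells and 0.48 ± 0.12 in GFP cells (log2; edgeR adjusted p = 0.0166 and 0.00764). Ctsd, the most abundant, had log2 fold changes of 0.01 ± 0.13 and 0.07 ± 0.13 and passed neither fit. Ctss, the protease of antigen-presenting cells, had log2 fold changes of -0.03 ± 0.58 in Cre cells and -0.03 ± 0.58 in GFP cells. Ctsf and Ctsz, cathepsins F and Z, were lower only with the block in both cell groups, while Ctsh and Tpp1, which remove residues from the amino end of peptides, passed neither fit.

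Of the membrane proteins and regulators, Grn fell in both cell groups. Grn encodes progranulin, whose products support lysosomal enzymes, and it had 309.8, 319.7, 297 and 344 CPM in Cre cells with TGF-beta, against 452, 442, 440.2 and 429.9 CPM without it. In GFP cells Grn had 305, 345, 310.3 and 287 CPM with TGF-beta, against 394, 417, 380 and 407 CPM without it. The groups did not overlap, with log2 fold changes of -0.47 ± 0.08 and -0.36 ± 0.08 (edgeR adjusted p = 0.000366 and 0.00316). Tfeb had 15.8, 16.6, 11.6 and 10.9 CPM in Cre cells with TGF-beta, against 18.7, 18.6, 16.6 and 11.8 CPM without it. In GFP cells Tfeb had 15.4, 15.3, 15.7 and 10.4 CPM with TGF-beta, against 17.4, 19.3, 15.6 and 9.48 CPM without it. These ranges overlap, and Tfeb had log2 fold changes of -0.26 ± 0.22 and -0.12 ± 0.22, passing only in Cre cells and only with the block (edgeR adjusted p = 0.0455). That call was lost in 3 of 4 fits without 1 preparation, and without preparation 3 the log2 fold change was -0.16 (edgeR adjusted p = 0.25). Lamp1 had 781, 732, 765 and 695 CPM in Cre cells with TGF-beta, against 959, 923, 909.6 and 848 CPM without it, and fell there, at -0.29 ± 0.10 (log2; edgeR adjusted p = 0.0333). In GFP cells the -0.18 ± 0.10 of Lamp1 passed only with the block, and not when any 1 preparation was left out. Laptm4a, a transmembrane protein of late endosomes and lysosomes, fell in Cre cells, at -0.40 ± 0.12 (log2; edgeR adjusted p = 0.0173). In GFP cells its -0.21 ± 0.12 passed only with the block, a call lost without preparation 3 alone (edgeR adjusted p = 0.084). Lamp2, the other main membrane glycoprotein, was lower in GFP cells only with the block, and Mcoln1, the calcium-releasing channel of the lysosome, passed neither fit. The macrophage and leukocyte markers moved in the direction of the genes that fell, as given above, and their part in these falls was not tested.

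The 12 genes with CACGTG in their promoter, 1 window of each being printed above, are set here beside the 23 without it. In Cre cells 5 of the 12 fell and 1 rose, and 10 of the 23 fell and 2 rose, with median log2 fold changes of -0.34 and -0.32. In GFP cells 3 of the 12 fell and 1 rose, and 7 of the 23 fell and 2 rose, with medians of -0.29 and -0.27. Among all genes 16.3% fell and 14.0% rose in Cre cells, and 15.3% fell and 13.8% rose in GFP cells. With the block, 8 of the 12 fell and 1 rose, and 16 of the 23 fell and 3 rose, in each cell group. In that fit 27.3% of all genes fell and 25.2% rose in Cre cells, and 26.5% fell and 22.6% rose in GFP cells. The split by CACGTG was not tested in either cell group.

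**Figure D3:**
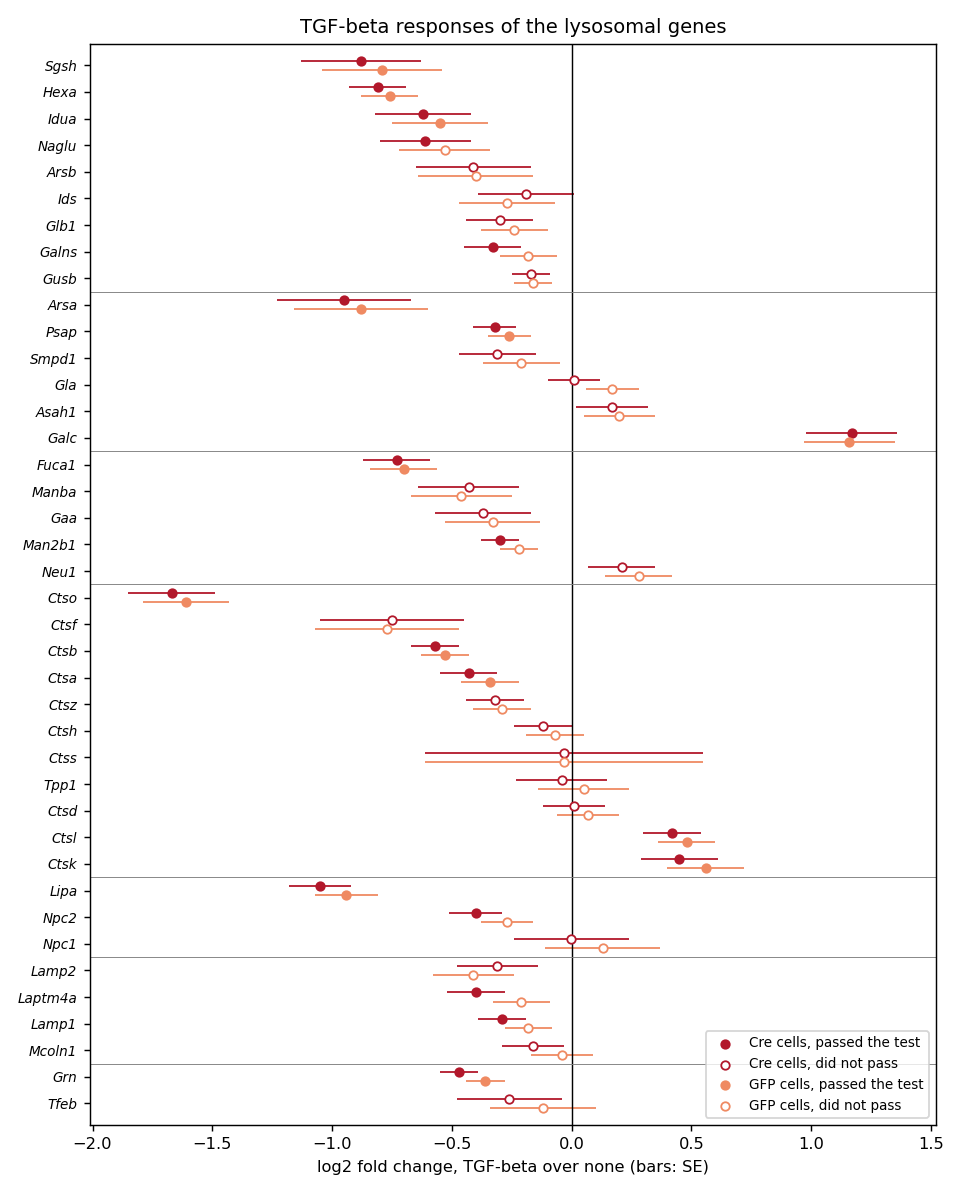
Log2 fold change with TGF-beta against without it for each of the 40 genes, as the fitted value with its SE as the bar; dark red points are Cre cells and orange points GFP cells, and filled points passed edgeR's test without the block at an adjusted p under 0.05. Ctso and Lipa lie farthest below 0, at -1.67 and -1.05 in Cre cells, and Galc lies farthest above it, at 1.17.

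Further lysosomal genes were followed in 6 lists that differed in direction, and all their genes but Hyal3 and Mcoln3 were tested. For comparison, 16.3% of all genes fell and 14.0% rose in Cre cells, and 15.3% fell and 13.8% rose in GFP cells. Block fits that each left out 1 preparation called more. In them 3396 to 4335 of all genes fell and 2892 to 4251 rose in Cre cells. In GFP cells 3148 to 4204 fell and 2571 to 3847 rose. Of 10 other genes of glycosaminoglycan breakdown, 7 fell in Cre cells and 6 in GFP cells, and none rose, with medians of -0.59 and -0.53. In those block fits 8 to 10 of this list fell in Cre cells and 8 or 9 in GFP cells, and 0 rose. Hpse, which encodes the heparanase that cuts heparan sulfate within the chain, had 2.21, 1.47, 1.42 and 1.28 CPM in Cre cells with TGF-beta, against 18.97, 15.3, 16.7 and 13.6 CPM without it. In GFP cells Hpse had 1.78, 1.61, 2.16 and 0.768 CPM with TGF-beta, against 19.96, 17.5, 15.1 and 12.2 CPM without it, and the log2 fold changes were -3.33 ± 0.27 and -3.37 ± 0.27 (edgeR adjusted p = 5.99e-07 and 6.64e-07). Arsg, a heparan sulfatase, fell, at -1.72 in Cre cells and -1.79 in GFP cells, and Arsk, a sulfatase of glucuronate, fell at -0.57 and -0.75. Of 22 other hydrolases and activators, 5 fell and 2 rose in Cre cells, and 6 fell and 2 rose in GFP cells. In the block fits without 1 preparation, 10 to 12 fell and 1 or 2 rose in Cre cells. There 9 or 10 fell and 1 or 2 rose in GFP cells. Lgmn, the asparagine-specific protease legumain, fell, at -1.22 and -1.28, and Siae, a sialic acid esterase, fell at -1.40 and -1.18 in Cre and GFP cells. Ctsw, cathepsin W, rose at low levels, with 5.55, 8.21, 4.55 and 8.30 CPM in Cre cells with TGF-beta, against 0.131, 0.370, 0.276 and 0.467 CPM without it.

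The subunits of the V-ATPase, the proton pump that acidifies the lysosome, were mostly higher with TGF-beta. Of 19 subunits and accessory proteins, 11 rose in Cre cells and 13 in GFP cells, and none fell, with medians of 0.37 and 0.40. Among all genes 14.0% rose in Cre cells and 13.8% in GFP cells. With the block 13 rose and 1 fell (Tcirg1) in Cre cells (25.2% and 27.3% of all genes), and 15 rose in GFP cells (22.6% of all genes). Atp6v1e1 had 173, 194, 158 and 198 CPM in Cre cells with TGF-beta, against 121, 119, 109 and 125 CPM without it. In GFP cells it had 178, 186, 159.6 and 167 CPM with TGF-beta, against 108, 116, 104 and 108 CPM without it, and the groups lay apart at 0.61 ± 0.09 and 0.66 ± 0.09 (edgeR adjusted p = 0.00013 and 6.26e-05). Atp6v1g1 rose by 0.65 and 0.73, and Atp6v1d by 0.55 and 0.60, in Cre and GFP cells. Of 10 genes of enzyme sorting, 1 fell in each cell group without the block (10.0%, below the share of all genes). It was Scarb2, the receptor that carries beta-glucocerebrosidase, at 0.5 of the level without TGF-beta in Cre cells and 0.552 in GFP cells. M6pr, a mannose 6-phosphate receptor, rose in GFP cells (0.21 ± 0.07) and had 0.18 ± 0.07 in Cre cells. In block fits that each left out 1 preparation, 2 to 4 of the 10 fell and 0 to 2 rose in Cre cells. There 3 or 4 fell and 0 or 1 rose in GFP cells. Over all genes 3396 to 4335 fell in Cre cells and 3148 to 4204 in GFP cells in these fits. The rises were 2892 to 4251 and 2571 to 3847. Of 19 other membrane proteins, 4 fell in Cre cells and 3 in GFP cells without the block, and none rose. These shares of 21.1% and 15.8% stand beside 16.3% and 15.3% of all genes. In the block fits without 1 preparation, 5 to 7 fell and 0 or 1 rose in Cre cells. There 3 to 6 fell and 0 to 3 rose in GFP cells. Cln3, the gene of a juvenile form of neuronal ceroid lipofuscinosis, was at -0.78 in Cre cells and -0.95 in GFP cells. Among 19 relatives of TFEB, their regulators and autophagy genes, 3 rose and 1 fell in Cre cells, and 4 rose and 2 fell in GFP cells. The shares of all genes were 14.0% higher and 16.3% lower in Cre cells, and 13.8% and 15.3% in GFP cells. In the block fits without 1 preparation, 3 to 6 of the 19 rose and 5 or 6 fell in Cre cells. There 5 to 7 rose and 4 to 6 fell in GFP cells, with the counts of all genes as given above. The 19 include Sqstm1, the autophagy receptor p62, at 0.71 ± 0.10 and 0.76 ± 0.10, and Mitf, a relative of TFEB, at -0.43 ± 0.21 (not passed) in Cre cells and -0.70 ± 0.22 in GFP cells.

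**Figure D4:**
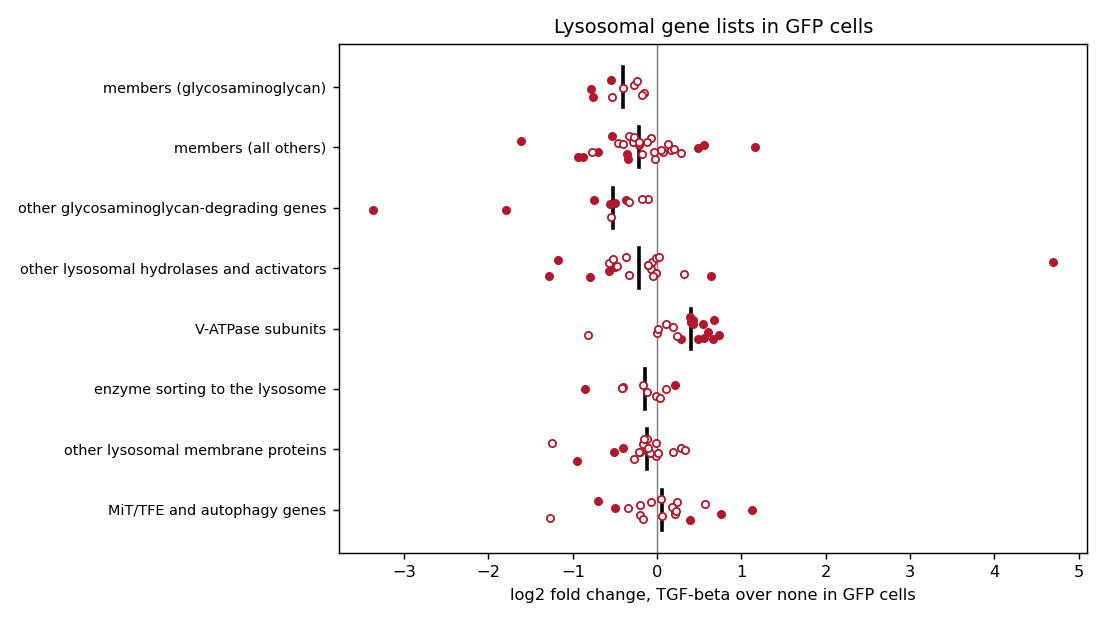
Log2 fold change with TGF-beta against without it in GFP cells for every tested gene of the glycosaminoglycan enzymes, the other genes among the 40, and 6 further lists; each point is a gene, filled where it passed the test without the block, and the bar is the list's median. The V-ATPase points sit mostly above 0 (median 0.40), and both lists of glycosaminoglycan genes below it (medians -0.40 and -0.53).

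The Cre virus was meant to delete Has2, and the counts do not show that it did so, so what follows compares the viruses. With TGF-beta, none of the 40 passed edgeR's test, with or without the block, where 0.0% of all genes were higher and 0.0% lower without the block, and 0.0654% higher and 0.0% lower with it. DESeq2 called none of the 40 either. Fitted differences ran from -0.34 to 0.17 on the log2 scale, with a median of -0.08 (0.00 over all genes), and 32 of the 40 were below 0 (51.0% of all genes). All 9 glycosaminoglycan enzymes were below 0, with a median of -0.13. At an unadjusted p under 0.05, 1 of the 40 (Man2b1) was reached without the block (1.75% of all genes). With the block 7 were, all lower in Cre cells, namely Arsa, Gaa, Lipa, Man2b1, Npc1, Sgsh and Tpp1 (13.3% of all genes). The lowest adjusted p among the 40 was 0.177 in edgeR's block fit, for Lipa, with -0.20 ± 0.06 on the log2 scale.

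Values by library show how small these differences were. With TGF-beta, Man2b1 had 80.04, 74.9, 78.96 and 72.8 CPM in Cre cells, against 88.2, 96.5, 86.6 and 76.1 CPM in GFP cells, lower in each preparation while the groups overlap (-0.18 ± 0.08). Lipa had 81.02, 85.1, 81.8 and 60.04 CPM in Cre cells, against 90.2, 96.5, 91.5 and 74.5 CPM in GFP cells, again lower in each preparation with overlapping groups (-0.20 ± 0.13). Npc1 had 75.5, 68.6, 76.5 and 33.1 CPM in Cre cells, against 86.8, 91.05, 90.6 and 52.6 CPM in GFP cells, the widest difference of the 40 and largest in replicate 4 (-0.34 ± 0.24). Psap and Galns followed at -0.12 ± 0.09 and -0.16 ± 0.12. Over the 40 genes, 15 were lower in Cre cells in 4 of 4 preparations (14.1% of all genes) and 1 was higher in 4 of 4 (10.1%), and for none were the groups without overlap (0.824% of all genes higher and 0.752% lower). By preparation the median difference of the 40 was -0.08, -0.19, -0.11 and 0.00. In the block fit, the 95% interval of the difference lay within 0.5 on the log2 scale either side of 0 for 39 of the 40, Npc1 being the exception (-0.61 to -0.12). The interval for Hexa was -0.23 to 0.13 and that for Sgsh -0.33 to -0.04. Without the block, the interval lay within 0.5 of 0 for 26 of the 40, and within 1 for all but Ctss.

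Without TGF-beta, none of the 40 passed edgeR's test between Cre and GFP cells, with or without the block, where 0.0% of all genes were higher and 0.0% lower without it and 0.164% higher and 0.00654% lower with it. DESeq2 called none of the 40. Differences ran from -0.21 to 0.21 with a median of -0.02 (-0.01 over all genes). At an unadjusted p under 0.05, 0 of the 40 were reached without the block (1.11% of all genes), and with it 3 were, all higher in Cre cells, namely Ctss at 0.25 ± 0.08, Npc2 at 0.21 ± 0.08 and Grn at 0.14 ± 0.07 (5.77% of all genes). Their lowest adjusted p was 0.632 in edgeR's block fit. Npc2 had 926, 794, 719.9 and 835 CPM in Cre cells, against 766, 743, 623 and 707 CPM in GFP cells, higher in each preparation with overlapping groups. Grn had 452, 442, 440.2 and 429.9 CPM in Cre cells, against 394, 417, 380 and 407 CPM in GFP cells, and was the only one of the 40 whose groups did not overlap (1.13% of all genes were higher and 0.334% lower without overlap). Man2b1, Galc and Gla were next by p without the block, at -0.10 ± 0.08, -0.21 ± 0.19 and 0.11 ± 0.11. Of the 9 glycosaminoglycan enzymes 8 were below 0, with a median of -0.06. Over the 40, 10 were lower in 4 of 4 preparations (13.3% of all genes) and 7 higher (12.7%). In the block fit the 95% interval lay within 0.5 of 0 on the log2 scale for 39 of the 40, the exception being Ids (-0.54 to 0.11). Without the block it did so for 28 of the 40, and lay within 1 for all but Ctss.

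**Figure D5:**
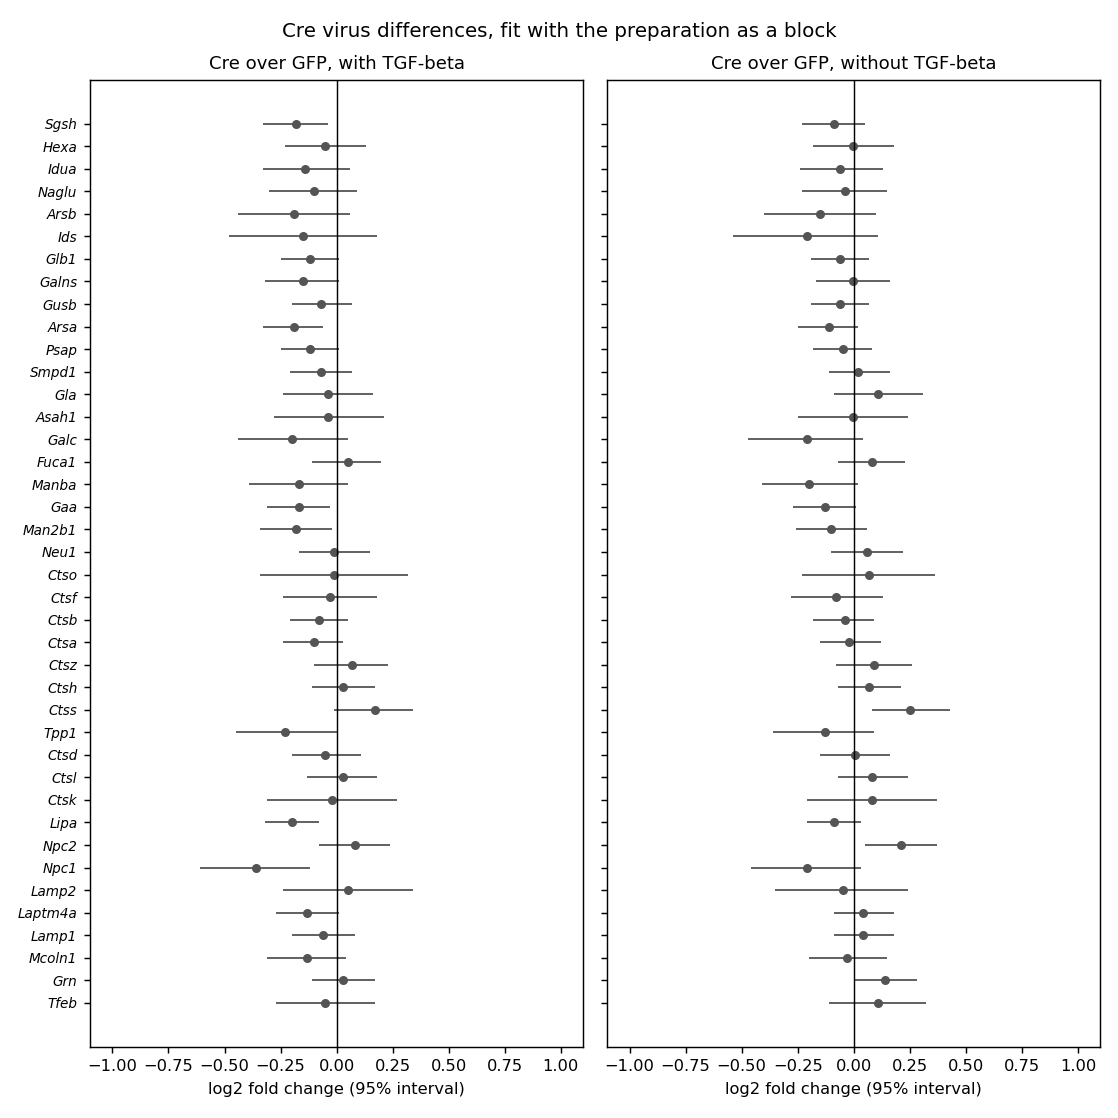
Log2 difference of Cre against GFP cells for each of the 40 genes in the fit with the preparation block, with TGF-beta on the left and without it on the right; points are fitted values and bars 95% intervals. Points on the left lie mostly below 0 (median -0.08) and those on the right on both sides of it (median -0.02), and no gene passed the test in either panel.

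The TGF-beta response itself was compared between Cre and GFP cells. None of the 40 differed by edgeR's test, with or without the block, or by DESeq2, and 0.0% of all genes passed in either direction in either edgeR fit. At an unadjusted p under 0.05, 0 of the 40 were reached without the block and 0 with it, where 0.589% and 3.28% of all genes were. The differences ran from -0.18 to 0.10 on the log2 scale with a median of -0.07 (-0.01 over all genes), and 35 of the 40 were below 0 (51.6% of all genes). In the block fit the 95% interval lay within 0.5 of 0 for 36 of the 40, the exceptions being Ctsk, Ctso, Ids and Lamp2, and within 1 for all 40. Without the block it lay within 0.5 for 19 of the 40, and within 1 for all but Ctss. So the 6 genes that fell in Cre cells and did not pass in GFP cells without the block (Galns, Lamp1, Laptm4a, Man2b1, Naglu and Npc2) are not shown to respond differently.

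Preparations also differed in the level of these genes. Of the 40 genes, 23 lay below their group's mean in preparation 4 in all 4 groups (27.6% of all genes), and 13 in preparation 3 (19.2%). Above it in all 4 groups lay 24 in preparation 1 (18.0% of all genes) and 28 in preparation 2 (27.1%). In preparation 4, 2 of the 40, Ctsh and Ctss, lay above their group's mean in all 4 groups (25.7% of all genes). Ctss had 24.3, 33.3, 29.3 and 86.7 CPM in Cre cells with TGF-beta, and 22.6, 27.6, 27.4 and 76.3 CPM in GFP cells with TGF-beta. Without TGF-beta it had 26.2, 30.1, 31.5 and 89.5 CPM in Cre cells and 19.6, 27.8, 22.5 and 87.5 CPM in GFP cells. The 4 libraries of preparation 4 lay at 76.3 to 89.5 CPM and the other 12 at 19.6 to 33.3 CPM. The summed macrophage and leukocyte markers were also highest in preparation 4, at 1239 CPM in Cre cells and 1135 CPM in GFP cells with TGF-beta, against 2007 CPM in Cre cells and 1880 CPM in GFP cells without it, and their part in the Ctss levels was not tested.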

How the data were processed

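The authors deposited raw read counts per gene for 16 libraries in 1 table, with no normalization. Per the submitters' processing notes, HTSeq 0.10.0 and FastQC 0.10.1 were used with build GRCm39; which aligner, annotation and strand setting they chose is not given in the sources used here. Reads of overlapping or antisense genes are therefore uncertain. By GENCODE M21, an annotation of the earlier build GRCm38, 15 of the 40 genes share exon bases with another gene, and 8 share over 10% of them (Arsa, Arsb, Ctsa, Ctsb, Ctsd, Ctsl, Hexa and Sgsh). That annotation also gave symbols for 52081 identifiers and the exon lengths.

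Genes were filtered with filterByExpr (minimum count 10, minimum total 15), leaving 15285. Genes were tested by the quasi-likelihood F test of edgeR 4.0.16 under R 4.3.3 (with limma 3.58.1, TMM scaling, robust estimation, prior count 0.125, 1 mean per group, all 16 libraries, no block), and passed where the p, adjusted by Benjamini-Hochberg over all tested genes, was under 0.05. The fit was tested on simulated data. SE is the log2 fold change over the root of F. Differences within a preparation are of log2(CPM + 0.5).

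The replicate numbers pair the libraries: deviations from group means correlated at 0.323 to 0.838 in all 24 same-numbered pairs of libraries, against at most 0.292 in the 72 others. The fit with the replicate block is therefore given wherever it changes a call. Other alternatives were DESeq2 1.42.0, RLE scaling, other filters (none, or at least 5 CPM in 4 libraries), fits of only the libraries compared, and fits without each library or preparation. No pair of libraries in a group lay within sampling noise.

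The genes, their role groups, the pathway and marker lists and the tests were chosen with earlier results of these data known. Values are given for the glycosaminoglycan enzymes, Tfeb, Lamp1, Ctsk and Ctss always, for up to 10 called genes in each direction per TGF-beta comparison, for the 5 smallest p per Cre comparison and for up to 3 genes per pathway list. Other genes were named after their values were seen. Promoters came from RefSeq.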

Additional observations from a re-analysis of the deposited data

Results flagged for a closer look

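In 11 of 164 sets of 4 libraries of a group, 1 library stood apart from the other 3 by Dixon's criterion, which chance alone meets in about 1 in 20 such sets. Replicate 4 was the library in all but 1 of them.

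Ctss, the protease of antigen-presenting cells, had replicate 4 apart in all 4 groups. With TGF-beta this library held 86.69 CPM in Cre cells (24.29 to 33.3 CPM in the others) and at 76.29 CPM in GFP cells (22.58 to 27.59 CPM). Without TGF-beta it stood at 89.55 CPM in Cre cells (26.2 to 31.49 CPM) and at 87.48 CPM in GFP cells (19.63 to 27.79 CPM).

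With TGF-beta, replicate 4 was low for Manba and Lipa in Cre cells, at 13.51 CPM (23.25 to 24.87 CPM in the others) and 60.04 CPM (81.02 to 85.07 CPM). It was low for Npc1 and Tfeb in GFP cells, at 52.6 CPM (86.77 to 91.05 CPM) and 10.42 CPM (15.31 to 15.74 CPM). In GFP cells without TGF-beta, replicate 4 was low for Lamp1, at 805.5 CPM (900.6 to 919.7 CPM), and high for Gusb, at 130.1 CPM (119.9 to 121.1 CPM). The remaining library was replicate 2 of the GFP cells for Ids, at 52.78 CPM (60.59 to 61.96 CPM).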

How the results depend on the processing

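No fold change of a gene among the 40 changed sign under any setting while called, and 1569 of the recomputed fold changes kept their side of the threshold, while 126 came to pass and 99 no longer did. With TGF-beta in GFP cells, 11 of the 40 fell, against 25 with the replicate block, 15 by DESeq2 and 7 with no filter on low counts. Leaving out 1 library gave 6 to 14, with 6 without GFP_TGFB replicate 4 or GFP replicate 1, and leaving out 1 preparation in the block fit gave 19 to 22 (20 without preparation 1). There 3 rose, against 4 with the block and 6 with the block and without preparation 4. In Cre cells 17 fell, against 26 with the block, 26 with the block and without preparation 4, and 19 by DESeq2, and leaving out 1 library gave 10 to 19, with 10 without Cre replicate 1 and 11 without Cre replicate 2. There 3 rose, 1 to 3 on leaving out 1 library (1 without Cre_TGFB replicate 2), 4 with the block and 5 with the block and without preparation 4. The median Cre difference with TGF-beta lay between -0.18 (without GFP_TGFB replicate 4) and -0.02 (without GFP_TGFB replicate 2), and that of the difference of responses between -0.17 and 0.01 in the same fits. The causes were not tested. The count of 0 between Cre and GFP cells held for the 40 genes under every setting run, the block included. Over all genes, the block raised the counts with TGF-beta to 3856 higher and 4174 lower in Cre cells and to 3451 and 4047 in GFP cells, against 2134 and 2495, and 2105 and 2340. By DESeq2, 2814 of all genes fell in Cre cells and 2621 in GFP cells, and with no filter on low counts 1994 fell in GFP cells. Leaving out 1 preparation in the block fit gave 3148 to 4204 lower in GFP cells. For the difference of responses, a fit of only the libraries compared is the same as the fit of all 16. The lowest depth, 17.9 M counts, still gave every one of the 40 genes enough reads to test.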

Other observations

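A few further lysosomal genes moved without belonging to the enzymes. With TGF-beta, Rragd, a GTPase gene of nutrient sensing that TFEB is known to induce, had a log2 fold change of 1.25 in Cre cells and 1.13 in GFP cells, and passed edgeR's test in both. Wipi1, an early autophagosome protein, fell at -0.49 and -0.50, and Lmbrd1, a cobalamin exporter of the lysosomal membrane, at -0.51 in both. These genes were picked for naming after their values were seen.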
